A study of Mus musculus with 12 samples.

Results

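Metallothioneins and the glutathione and thioredoxin systems were followed in mouse spleen through 10 genes: Mt1, Mt2, Slc30a1, Slc39a14, Slc7a11, Gclm, Gclc, Txnrd1, Nqo1 and Srxn1. They were chosen by name, as the probe sets whose gene symbol in the platform's annotation is one of the 10. Earlier results of these data were known when the 10 were chosen. Counts of them set beside the shares of all genes are therefore a description and no test of the set. All 10 were measured, out of 12393 genes, through 18 of the 22626 probe sets tested. The brightest probe set on average stands for its gene, and the others are given beside it. In 4 groups of 3 mice, total spleen RNA was hybridised to Affymetrix MOE430A 2.0 arrays, 1 array and 1 spleen per mouse. The groups were DUSP1-/- mice (knockout) 6 h after an intraperitoneal injection of E. coli lipopolysaccharide (LPS, 10 µg per g of body weight), DUSP1+/+ mice (wild-type) given the same LPS, untreated knockout controls and untreated wild-type controls. The controls were not injected, so injection and LPS cannot be told apart. Strain, age, sex and the structure of the deleted allele are not given in the sources used here.

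Metallothioneins are small cysteine-rich proteins that bind zinc and copper, and their genes are switched on by the zinc-sensing factor MTF-1, by glucocorticoids and by cytokine signals, so that they are well known acute-phase genes in liver. Glutathione is built from cysteine, which many cells import as cystine, and with thioredoxin it keeps protein thiols reduced. Many of these enzymes are targets of NRF2, a factor that binds antioxidant response elements when its inhibitor KEAP1 is modified. LPS is a bacterial cell wall component that activates Toll-like receptor 4, and DUSP1 is a phosphatase that removes activating phosphates from p38 and JNK MAP kinases.

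Promoters of genes the results turn on are shown first, so that their response elements can be set beside the values. RefSeq promoter sequence on GRCm38.p6 was used for 8 of the 10 genes (all but Slc39a14 and Gclc), as the 250 bases before an annotated transcript start. Capitals mark matches, on either strand, to the metal response element core (TGCACNC or TGCGCNC), the antioxidant response element core (TGACNNNGC or TGAGNNNGC) or the amino acid response element core (TGATGCAA). The window of Mt2, the metallothionein with the most matches, is at chr8:94172368-94172617 on the plus strand.
Mt2: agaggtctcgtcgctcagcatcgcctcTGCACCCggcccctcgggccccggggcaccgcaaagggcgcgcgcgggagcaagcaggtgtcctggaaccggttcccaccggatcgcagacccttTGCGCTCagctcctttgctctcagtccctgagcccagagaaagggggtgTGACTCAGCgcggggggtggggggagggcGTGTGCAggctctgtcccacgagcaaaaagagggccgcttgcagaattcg
The window of Slc7a11, the cystine transporter, is at chr3:50443614-50443863 on the minus strand and starts from an internal transcript start of the gene.
Slc7a11: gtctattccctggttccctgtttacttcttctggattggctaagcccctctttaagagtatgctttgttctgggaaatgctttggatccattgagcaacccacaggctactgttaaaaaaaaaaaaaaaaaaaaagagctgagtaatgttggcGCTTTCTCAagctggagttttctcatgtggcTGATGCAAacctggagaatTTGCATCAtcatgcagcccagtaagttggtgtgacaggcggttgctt
The window of Srxn1, sulfiredoxin, is at chr2:152105274-152105523 on the plus strand.
Srxn1: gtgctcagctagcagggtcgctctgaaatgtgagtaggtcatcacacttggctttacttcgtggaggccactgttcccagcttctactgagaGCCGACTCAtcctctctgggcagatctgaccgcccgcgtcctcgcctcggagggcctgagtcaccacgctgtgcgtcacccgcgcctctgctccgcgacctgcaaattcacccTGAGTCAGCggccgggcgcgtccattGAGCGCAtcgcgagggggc
Around a single match, 30 bases are shown for Mt1 (chr8:94179055-94179084, plus strand), Slc30a1 (chr1:191906727-191906756, plus strand) and the second of 3 annotated starts of Txnrd1 (chr10:82859104-82859133, plus strand).
Mt1: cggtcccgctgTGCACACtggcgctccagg
Slc30a1: acgggggttccGAGTGCAaagcaaagtttt
Txnrd1: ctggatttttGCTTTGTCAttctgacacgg

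Mt2 held 3 matches to the metal core, Gclm 2, and Mt1, Slc30a1 and Srxn1 1 each, while Slc7a11, Txnrd1 and Nqo1 held 0. At least 1 such match was present in 21.4% of 32851 promoter windows of the same length, and 3 or more in 1.26%. The antioxidant core matched at 2 places in Srxn1 and Slc30a1 and at 1 place in Mt2, Slc7a11, Gclm and the second start of Txnrd1. It was matched in 23% of all windows, and was not found in those of Mt1 and Nqo1. In Gclm a metal and an antioxidant match overlapped. Slc7a11 held 2 matches to the amino acid core, which lies in genes induced when amino acids run short. That core was matched in 0.791% of windows, and 2 windows in all held 2 of them. A match is a string of letters and not a measured binding site, and a window without one says nothing of the factor. Mt1 and Mt2 are neighbours on chromosome 8, with the starts of their annotated genes 6265 bases apart. The transcript starts used for Mt1, Slc30a1 and Gclm, like that of Slc7a11, lie inside the annotated gene.

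After LPS both metallothionein genes rose in both genotypes, with the zinc importer Slc39a14 and the selenoenzyme Txnrd1. Slc7a11 rose in knockout spleen. In knockout spleen 5 of the 10 genes passed the test upward (Mt1, Mt2, Slc39a14, Slc7a11 and Txnrd1), where 5.54% of all genes did, and 0 of 10 passed downward, where 9.71% of all genes did. In wild-type spleen 4 of 10 passed upward, the same genes without Slc7a11, against 3.93% of all genes, and 0 passed downward against 4.16%. For 5 genes, Slc7a11 now included, the 3 LPS values lay above the 3 controls without overlap in each genotype, as for 11.3% of all genes in knockout and 10.2% in wild-type spleen. Averaged over the genotypes, the 5 genes passed upward again, against 8.52% of all genes, and 0 downward against 14.3%. The median log2 response of the 10 genes was 1.03 in knockout and 0.34 in wild-type spleen, beside -0.06 and -0.03 over all 12393 genes. Values are intensities on a linear scale, differences are log2 of LPS over control or of knockout over wild-type with limma's standard error after ±, and a call means a Benjamini-Hochberg adjusted p below 0.05 over all probe sets in limma. In whole spleen RNA, fewer cells of a type and less RNA per cell cannot be told apart. The mean log2 of the B cell markers (7 of 8 measured) ran from 8.09 to 8.35 in knockout LPS, 8.46 to 9.15 in wild-type LPS, 8.81 to 10.01 in knockout control and 9.62 to 9.85 in wild-type control arrays. That of the T cell markers (6 of 8 measured) ran from 6.96 to 7.49, 6.95 to 7.66, 7.49 to 9.07 and 8.33 to 8.93 in the same order, and that of the resident macrophage markers (10 of 10 measured) from 9.44 to 9.86, 8.97 to 9.09, 9.82 to 10.21 and 10.07 to 10.47. These marker means were thus mostly lower after LPS, and their part in the responses was not tested.

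**Figure D1:**
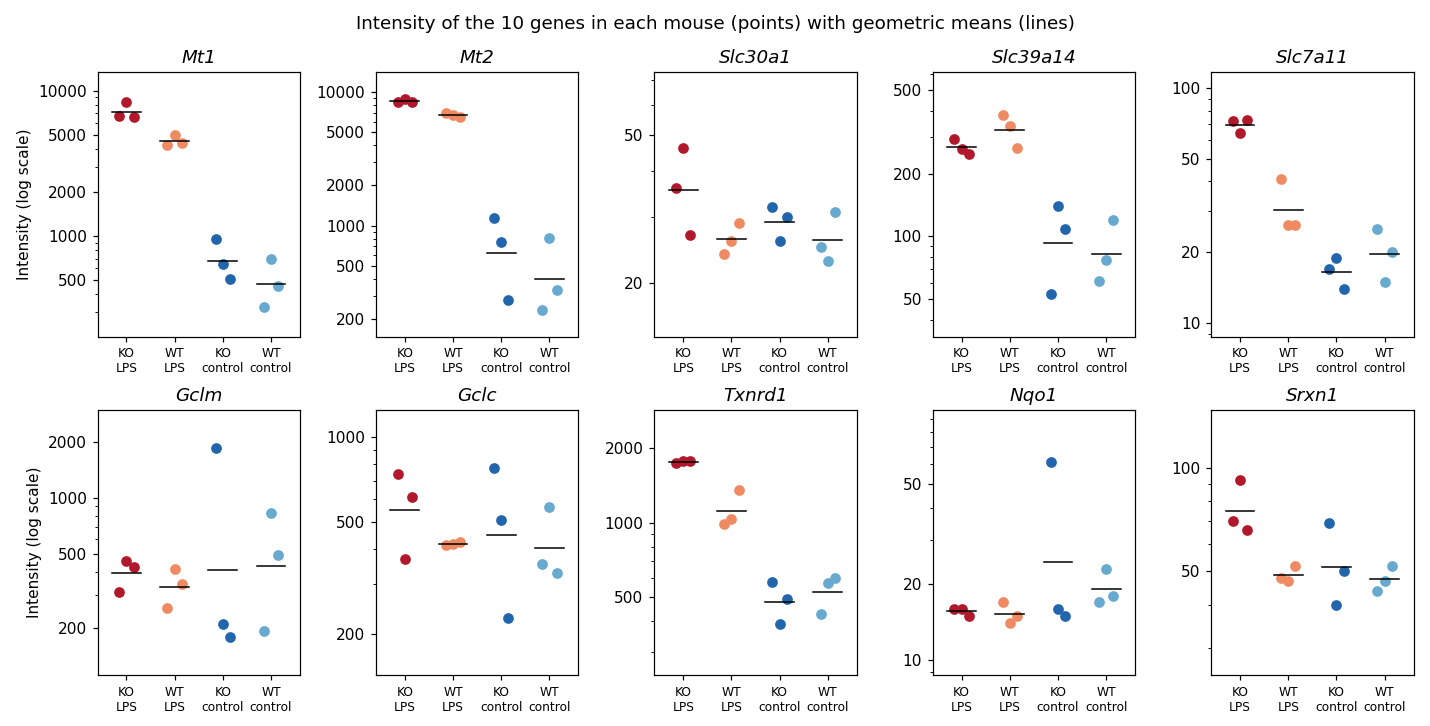
Intensity (log scale) of the probe set standing for each of the 10 genes in the 12 spleens, 1 point per mouse and a line at the geometric mean, with the groups from left to right knockout LPS, wild-type LPS, knockout control and wild-type control. Mt1, Mt2, Slc39a14, Slc7a11 and Txnrd1 have all 6 LPS points above all 6 control points, and Gclm, Gclc and Nqo1 have their highest point in knockout control 1.

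Mt1, a metallothionein made in most tissues, had intensities of 6709, 8439 and 6574 in knockout LPS spleens and of 4260, 4950 and 4374 in wild-type LPS spleens. The controls had 951, 639 and 510 in knockout spleens and 324, 690 and 451 in wild-type spleens. All 6 LPS values lay above all 6 control values, and the knockout LPS values lay above the wild-type LPS values without overlap. The LPS response was 3.41 ± 0.29 in knockout spleen, or 10.6-fold (adjusted p = 7.03e-05 in limma), and 3.28 ± 0.29 in wild-type spleen, or 9.71-fold (adjusted p = 0.000141 in limma). The other Mt1 probe set read 157, 187 and 181 in knockout LPS and 72, 59 and 78 in wild-type LPS spleens, with controls between 20 and 34. It also rose in both, by 2.63 ± 0.24 in knockout (adjusted p = 0.00012 in limma) and by 1.35 ± 0.24 in wild-type spleen (adjusted p = 0.00827 in limma). The probe sets thus agreed on the direction, while the wild-type rise was 1.35 through one and 3.28 through the other.

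Mt2, the neighbouring metallothionein gene, had 8372, 8829 and 8351 in knockout LPS spleens and 6939, 6702 and 6473 in wild-type LPS spleens. Its controls were more scattered, at 1132, 758 and 277 in knockout spleens and 236, 810 and 329 in wild-type spleens. The response was 3.78 ± 0.51 in knockout (13.7-fold, adjusted p = 0.00105 in limma) and 4.07 ± 0.51 in wild-type spleen (16.9-fold, adjusted p = 0.00125 in limma). Both are the highest log2 responses among the 10 genes in their genotype. Over the 12 arrays Mt1 and Mt2 correlated at r = 0.987, and at 0.949 within the 6 LPS arrays and 0.933 within the 6 controls, which is a description, since both genes share the arrays and the LPS step. The control values of both were highest in knockout control 1 and, in the wild-type group, in wild-type control 2.

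The 5 other genes most like the mean of Mt1 and Mt2 over the 12 arrays, among 8092 genes above the 40th percentile of intensity, were Ccrl2 (r = 0.993), Lcn2 (0.985), Oasl1 (0.980), Irf7 (0.979) and Ccl7 (0.978). Ccrl2 encodes an atypical chemokine receptor, Lcn2 the siderophore-binding protein lipocalin 2, Irf7 an interferon regulatory factor and Ccl7 a monocyte chemokine. Each of the 5 had its LPS arrays above its control arrays, for instance 797 to 1787 against 49 to 233 for Ccrl2 and 2824 to 4595 against 98 to 531 for Lcn2. That follows from picking them by likeness to genes with a large LPS step, and is a description.

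Slc39a14 (ZIP14), a cell surface importer of zinc, manganese and non-transferrin-bound iron, had 291, 263 and 249 in knockout LPS and 383, 337 and 264 in wild-type LPS spleens. Controls had 53, 140 and 108 in knockout spleens and 61, 77 and 120 in wild-type spleens. The LPS and control values did not overlap, while those of the genotypes did at both states. It rose by 1.52 ± 0.35 in knockout (2.88-fold, adjusted p = 0.0164 in limma) and by 1.97 ± 0.35 in wild-type spleen (3.92-fold, adjusted p = 0.00776 in limma). In knockout spleen it no longer passed without knockout LPS replicate 1 (adjusted p = 0.0666 in limma). Through its other probe set the response was 1.12 ± 0.28 in wild-type (adjusted p = 0.0378 in limma) and 0.52 ± 0.28 in knockout spleen (adjusted p = 0.291 in limma). Slc30a1 (ZnT1), the plasma membrane zinc exporter and a textbook MTF-1 target, read 36, 46 and 27 in knockout LPS, 24, 26 and 29 in wild-type LPS, 32, 26 and 30 in knockout control and 25, 23 and 31 in wild-type control spleens. All groups overlapped, and its responses of 0.28 ± 0.21 and 0.01 ± 0.21 in knockout and wild-type spleen were not called (adjusted p = 0.478 and 1 in limma). Its mean lay under an intensity of 30.49, the 40th percentile over all probe sets, where a change in RNA is hard to see, so the exporter's level is poorly measured here.

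Slc7a11, the light chain of the cystine-glutamate antiporter system xc-, had 72, 64 and 73 in knockout LPS spleens and 41, 26 and 26 in wild-type LPS spleens. Knockout controls had 17, 19 and 14, and wild-type controls 25, 15 and 20. The 3 knockout LPS values stood above all the others, and the wild-type LPS values stood just above the controls. The response was 2.07 ± 0.24 in knockout spleen (4.21-fold, adjusted p = 0.000447 in limma) and 0.63 ± 0.24 in wild-type spleen (1.55-fold, adjusted p = 0.168 in limma). The difference between these responses was 1.44 ± 0.34 (95% interval 0.70 to 2.19), with an unadjusted p of 0.00136 and an adjusted p of 0.398 in limma, so it did not pass over all probe sets. Slc7a11 too had a mean below the 40th percentile, and 4 of its 6 control values lie under 20, as do 30.78% of all values in the file.

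Gclc and Gclm are the catalytic and modifier subunits of glutamate-cysteine ligase, the rate-limiting enzyme of glutathione synthesis. Gclc had 739, 369 and 612 in knockout LPS, 413, 416 and 425 in wild-type LPS, 779, 506 and 228 in knockout control and 353, 562 and 329 in wild-type control spleens. The groups overlapped, and the responses of 0.30 ± 0.41 in knockout and 0.05 ± 0.41 in wild-type spleen were not called (adjusted p = 0.736 and 0.975 in limma). The other Gclc probe set gave 0.30 ± 0.48 and 0.51 ± 0.48, also not called. Gclm had 313, 461 and 427 in knockout LPS and 258, 415 and 346 in wild-type LPS spleens. In the controls it had 1842, 211 and 180 in knockout spleens and 193, 834 and 492 in wild-type spleens, a 10.2-fold range within the knockout controls alone. Its responses of -0.06 ± 0.79 and -0.37 ± 0.79 (adjusted p = 0.984 and 0.892 in limma) carry the largest standard error of the 10 genes. Without knockout control replicate 1, the knockout response of Gclm was 1.02.

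Gclm was highest in the arrays that were highest in red cell precursor markers. These markers (13 of 15 listed genes measured, among them Alas2, the erythroid enzyme of haem synthesis) had a mean log2 intensity of 10.69 in knockout control 1 and 9.60 in wild-type control 2, the arrays with the highest Gclm. In the remaining 10 arrays that mean ran from 5.96 to 7.96. By group it ran from 6.86 to 7.69 in knockout LPS, 6.67 to 7.89 in wild-type LPS, 5.96 to 10.69 in knockout control and 7.51 to 9.60 in wild-type control spleens. Alas2 read 6793 in knockout control 1 and 4537 in wild-type control 2, and no marker was at 0 in any array, since the lowest value in the file is 6. With these arrays left out, the responses in knockout and wild-type spleen were 3.66 and 3.56 for Mt1 and 4.22 and 4.59 for Mt2. Both genes had the highest control value of each genotype in these arrays, so larger responses follow from leaving them out. With the red cell marker mean as a covariate the standard error of the Gclm response in knockout spleen was 0.25 in place of 0.79, and the response was 0.34 (adjusted p = 0.465 in limma). The pancreas markers (13 of 18 measured) had a mean log2 of 11.10 in knockout control 1, 8.31 in knockout control 3 and 12.21 in wild-type control 1, and lay between 4.28 and 5.30 elsewhere. Slc39a14 had its lowest values in knockout control 1 (53) and wild-type control 1 (61). With the pancreas mean as a covariate its response was 1.02 ± 0.27 in knockout and 1.57 ± 0.26 in wild-type spleen (adjusted p = 0.035 and 0.00859 in limma). Without it the responses were 1.52 and 1.97. The neutrophil markers (11 of 12 measured) were highest in the same arrays as the red cell markers. Their mean log2 was 8.63 in knockout control 1 and 9.04 in wild-type control 2, against 7.05 to 7.96 elsewhere. They were not used as a covariate, so the arrays do not tell red cell precursors from neutrophils here. The smaller standard error with the red cell covariate cannot single out a cell type, and the part of these cell types in the Gclm values was not tested.

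**Figure D2:**
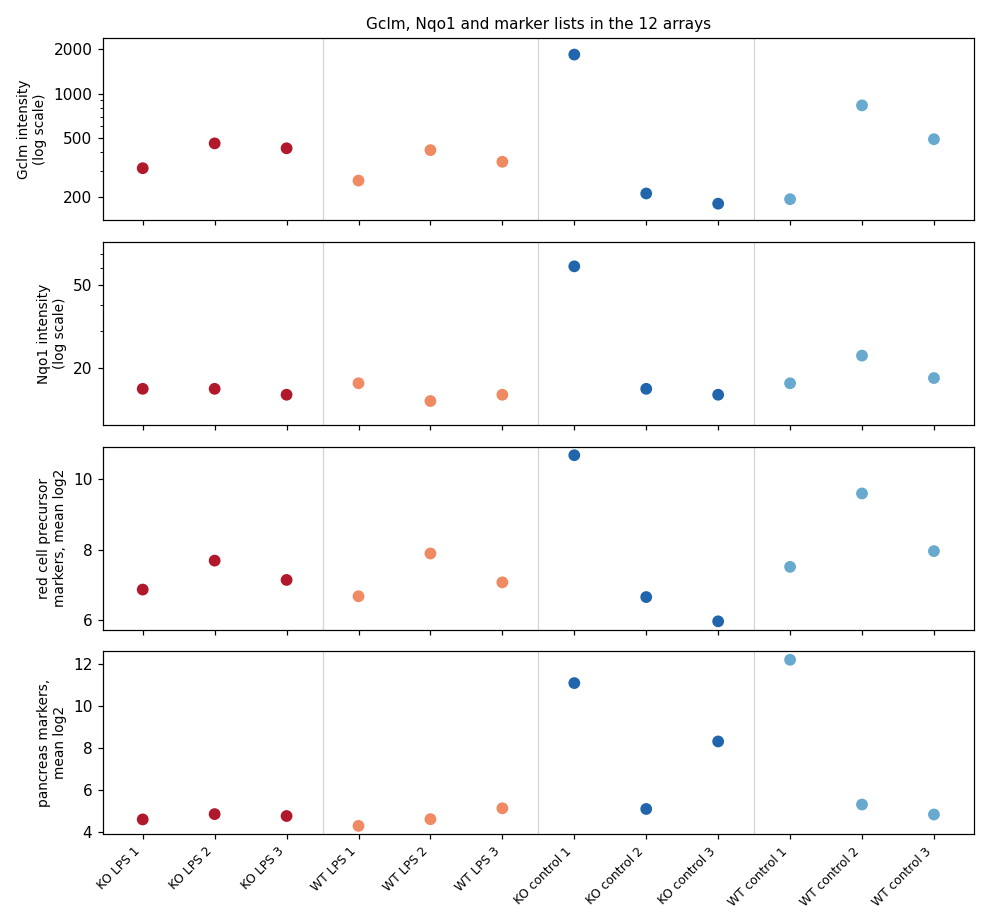
Intensity (log scale) of Gclm and Nqo1 and the mean log2 intensity of the red cell precursor and pancreas markers in each of the 12 spleens, in the order knockout LPS, wild-type LPS, knockout control, wild-type control. Gclm and the red cell markers are both highest in knockout control 1 and next highest in wild-type control 2, while the pancreas markers are highest in wild-type control 1.

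Nqo1, a quinone reductase and classic NRF2 target, was close to the bottom of the scale. It had 16, 16 and 15 in knockout LPS, 17, 14 and 15 in wild-type LPS, 61, 16 and 15 in knockout control and 17, 23 and 18 in wild-type control spleens. Knockout control 1 was the 1 array clearly above the rest, as for Gclm. The responses of -0.64 ± 0.43 in knockout and -0.33 ± 0.43 in wild-type spleen were not called (adjusted p = 0.414 and 0.794 in limma). With 11 of 12 values at 23 or less, a fall of Nqo1 was hardly measurable on these arrays.

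Txnrd1, the cytosolic selenoenzyme that reduces thioredoxin, had 1737, 1772 and 1761 in knockout LPS spleens and 982, 1035 and 1356 in wild-type LPS spleens. Controls had 577, 389 and 494 in knockout spleens and 429, 573 and 596 in wild-type spleens. The groups fell into 3 tiers without overlap, knockout LPS above wild-type LPS and both above the controls of either genotype. It rose by 1.87 ± 0.20 in knockout (3.66-fold, adjusted p = 0.000304 in limma) and by 1.08 ± 0.20 in wild-type spleen (2.11-fold, adjusted p = 0.0102 in limma). A different Txnrd1 probe set rose in both as well, by 1.76 ± 0.32 and 1.40 ± 0.32, and the dimmest rose by 1.08 ± 0.23 in knockout spleen and gave 0.60 ± 0.23 in wild-type spleen (adjusted p = 0.176 in limma). Without wild-type LPS replicate 3, the array with the highest wild-type value, the wild-type response of the leading probe set missed the threshold (adjusted p = 0.0563 in limma).

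Srxn1 (sulfiredoxin), which reactivates overoxidised peroxiredoxins, had 70, 92 and 66 in knockout LPS and 48, 47 and 52 in wild-type LPS spleens. Controls had 69, 40 and 50 in knockout spleens and 44, 47 and 52 in wild-type spleens. The wild-type values hardly differed between treatments, and in knockout spleen the highest control lay within the LPS values. The response was 0.54 ± 0.21 in knockout (adjusted p = 0.132 in limma) and 0.04 ± 0.21 in wild-type spleen (adjusted p = 0.952 in limma). Without knockout control replicate 1 the knockout response was 0.75 and passed (adjusted p = 0.0308 in limma). The 3 other Srxn1 probe sets gave -0.01, 0.27 and 0.72 in knockout spleen and 0.08, 0.12 and 0.19 in wild-type spleen, with no call among them.

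**Figure D3:**
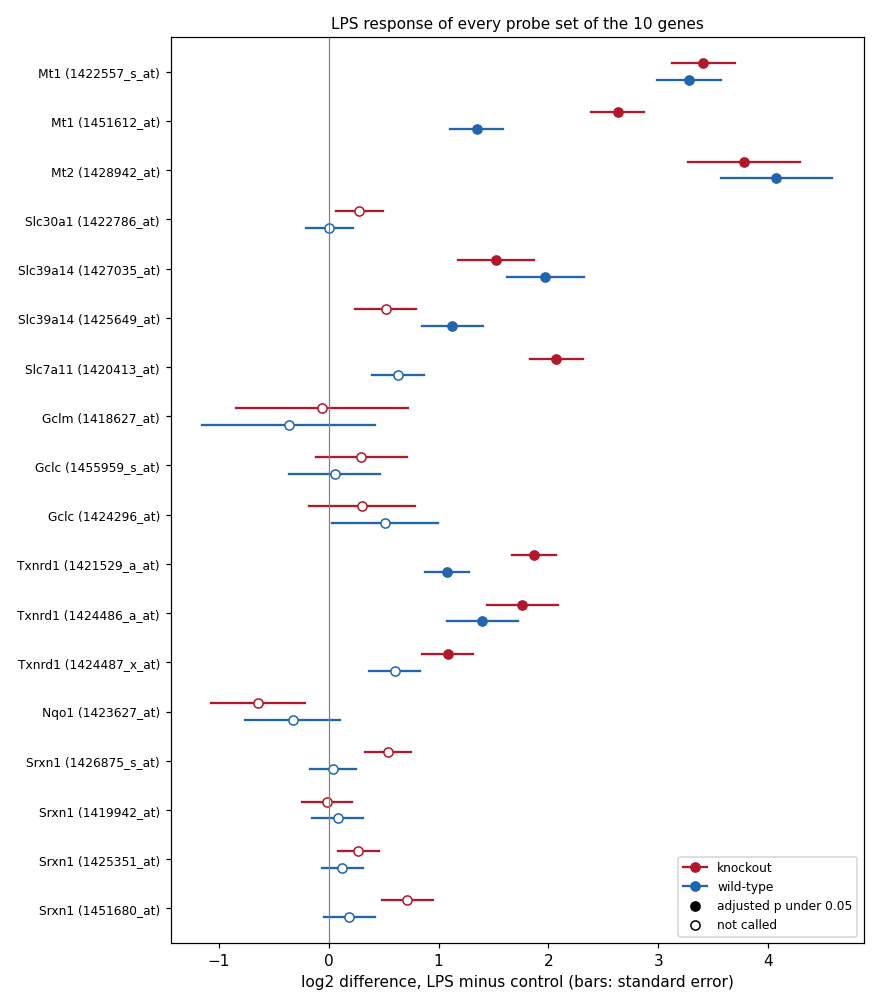
LPS response (log2 of LPS over control, bars are 1 standard error) of all 18 probe sets of the 10 genes, knockout above wild-type in each row and called differences filled. The probe sets of Mt1, Mt2, Slc39a14 and Txnrd1 lie right of 0 in both genotypes, and Nqo1 and Gclm lie left of it with the widest bars at Gclm.

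Between genotypes, no gene of the 10 passed the test, in LPS-treated or in untreated spleen, or for the difference of the LPS responses. After LPS 0.363% of all 12393 genes passed in either direction, in controls 0.00% and for the difference of responses 0.00%. At an unadjusted p below 0.05, 4 of the 10 genes lay in the comparison after LPS (10.2% of all genes), 0 in controls (1.42%) and 2 in the difference of responses (6.46%). After LPS the 3 knockout values of 5 genes (Mt1, Mt2, Slc7a11, Txnrd1 and Srxn1) lay above the 3 wild-type values without overlap, beside 8.73% of all genes, and 0 lay below without overlap, beside 9.60%. In controls 0 of 10 were separated upward, beside 1.53%, and 0 downward, beside 0.952%. The median log2 difference of the 10 genes was 0.42 after LPS and 0.16 in controls, against 0.02 and 0.07 over all genes.

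Among the probe sets that stand for the 10 genes, that of Slc7a11 had the largest genotype difference after LPS, 1.20 ± 0.24 or 2.30-fold (95% interval 0.67 to 1.73, adjusted p = 0.0777 in limma). Its adjusted p ran from 0.00103 to 0.456 over the 28 alternatives of processing, and it passed in 3 of them: with quantile normalization, with a floor of 32 on the intensities, and with array quality weights. The floor set every Slc7a11 control value (14 to 25) and the wild-type LPS values of 26 to 32, which removed most of their spread. Array weights greatly raised the number of all probe sets called in this comparison, as given at the end. The passes with the floor and with weights therefore say little of Slc7a11 itself. In controls the difference was -0.24 ± 0.24 (adjusted p = 1 in limma). The second Mt1 probe set, which does not stand for its gene, differed by more, 1.33 ± 0.24 or 2.52-fold (95% interval 0.80 to 1.87, adjusted p = 0.0574 in limma), whereas the leading Mt1 probe set differed by 0.67 ± 0.29 (adjusted p = 0.529 in limma). The Mt1 value therefore depends on the probe set.

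Txnrd1 differed by 0.66 ± 0.20 after LPS (1.58-fold, 95% interval 0.21 to 1.10, adjusted p = 0.281 in limma) and by -0.13 ± 0.20 in controls. Its other probe sets differed after LPS by 0.42 ± 0.32 (95% interval -0.30 to 1.13) and 0.30 ± 0.23 (-0.21 to 0.81), with overlapping genotypes, so 1 of 3 Txnrd1 probe sets separated them. Srxn1 differed by 0.62 ± 0.21 (1.54-fold, 95% interval 0.15 to 1.08, adjusted p = 0.36 in limma), and its brightest other probe set, with 81, 86 and 65 in knockout LPS against 45, 39 and 57 in wild-type LPS spleens, by 0.73 ± 0.23. The remaining Srxn1 probe sets differed by 0.19 ± 0.23 and 0.34 ± 0.18, with genotypes that overlapped. For Mt2 the difference was 0.35 ± 0.51 (95% interval -0.77 to 1.46). The values of this gene in LPS spleens were tightly grouped, but the model takes 1 spread per probe set over all 4 groups, and the Mt2 controls were scattered. The intervals of Slc39a14 (-1.05 to 0.49), Slc30a1 (-0.03 to 0.90), Gclc (-0.51 to 1.31), Gclm (-1.49 to 1.98) and Nqo1 (-0.92 to 0.99) all span 0.

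**Figure D4:**
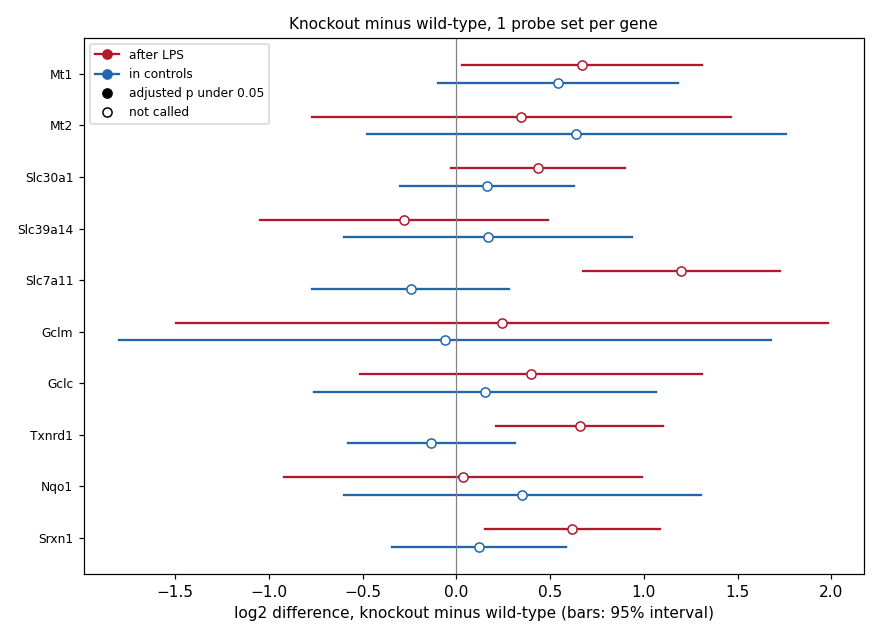
Knockout over wild-type difference (log2, with 95% intervals) of the 10 genes, after LPS above and in controls below within each row. Each gene is shown through 1 probe set, and Slc7a11 has the largest difference after LPS, 1.20, and lies at -0.24 in controls, and no difference passed the adjusted threshold.

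After LPS, the list means of the B cell and resident macrophage markers separated by genotype label. The B cell mean was lower and the macrophage mean higher in knockout arrays. The macrophage markers had a mean log2 of 9.44, 9.86 and 9.62 in knockout LPS arrays and of 9.09, 9.04 and 8.97 in wild-type LPS arrays. The B cell markers had 8.09, 8.32 and 8.35 against 9.15, 8.72 and 8.46. Not every marker did so singly. The B cell marker Cd79a read 1127, 2970 and 1447 in knockout LPS and 1950, 1546 and 730 in wild-type LPS arrays. The macrophage marker Spic read 573, 470 and 1006 against 915, 426 and 581, and the genotypes overlapped for both. The lung markers (9 of 10 measured) overlapped, with 7.11, 5.33 and 6.51 against 5.57, 5.22 and 5.24, and with their mean as a covariate the differences after LPS were 1.17 for Slc7a11, 0.75 for Txnrd1, 0.85 for Srxn1 and 0.90 for Mt1. The part of the macrophage and B cell markers in these differences was not tested. The liver markers (17 of 18 measured) ran from 6.25 to 8.78 in knockout LPS, 5.83 to 7.86 in wild-type LPS, 4.34 to 9.13 in knockout control and 4.50 to 7.35 in wild-type control arrays. With the liver mean as a covariate the Mt1 response was 3.38 in knockout and 3.26 in wild-type spleen. That fit takes 1 slope over LPS and control arrays, so it cannot show liver RNA that differs with LPS. Mt1 and the liver mean were highest together in knockout LPS 2 (8439 and 8.78) and wild-type LPS 2 (4950 and 7.86) within their groups. Knockout control 2, with a liver mean of 9.13, read 639 for Mt1. The part of liver RNA in the Mt1 values was not tested.

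The genotype labels could not be checked on the targeted gene. Dusp1 read 4963, 2948 and 4996 in knockout LPS, 2248, 2142 and 2116 in wild-type LPS, 677, 1528 and 1443 in knockout control and 479, 1354 and 627 in wild-type control arrays, so it was not lower in arrays labelled knockout. After LPS it was higher there without overlap, by 0.95 ± 0.41, which was not called (adjusted p = 0.528 in limma). The sources used here do not say whether the probes lie outside what was altered in the gene, and every knockout against wild-type direction above rests on the labels. Array medians ran from 47 to 64. Within groups, arrays correlated across probe sets at 0.965 to 0.989 in knockout LPS, 0.963 to 0.986 in wild-type LPS, 0.909 to 0.950 in knockout control and 0.938 to 0.961 in wild-type control spleens. Wild-type controls 2 and 3 had an Xist intensity of 35 and 47, against 1101 to 3949 in the other 10 arrays, and the Y-linked gene Eif2s3y read 316 and 53 there, against 7 to 10 elsewhere, which is the pattern of male mice. Because this pattern lies in wild-type controls alone, sex is partly confounded with the wild-type and averaged LPS responses. The same holds for the genotype comparison in controls and for the difference of responses. Leaving out wild-type controls 2 and 3, which leaves 1 wild-type control, gave a wild-type response of 3.80 for Mt1, 4.83 for Mt2 and 0.28 for Slc7a11.

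Counts of rises and falls below are over the measured genes of lists written out for each pathway, members included, and are read beside the shares of all genes given above. Of 32 metal handling genes, 4 rose and 3 fell in knockout spleen and 3 rose and 0 fell in wild-type spleen, with a median log2 response of 0.10 and 0.14. Beside Mt1, Mt2 and Slc39a14, the riser in knockout spleen was Mt4, a metallothionein of squamous epithelium, by 1.12 ± 0.26 (adjusted p = 0.0175 in limma) at intensities of 25, 44 and 19, with 12 or 13 in the knockout controls. The falls in knockout spleen were Ccs, the copper chaperone of superoxide dismutase 1 (-1.11 ± 0.26), and the zinc transporters Slc30a9 (-1.48 ± 0.40) and Slc39a9 (-0.84 ± 0.24). In wild-type spleen Ccs gave -0.97 ± 0.26, Slc30a9 -0.70 ± 0.40 and Slc39a9 -0.26 ± 0.24, none of them called. The averaged response also gave rises of the zinc importer Slc39a6 (0.68), the iron and manganese transporter Slc11a2 (0.67) and the copper importer Slc31a1 (0.52), and a fall of the copper chaperone Atox1 (-0.53). Mtf1, the zinc-sensing activator of the metallothioneins and named after its values were seen, lay between 83 and 118 in all 12 arrays, with responses of 0.06 and 0.01 in knockout and wild-type spleen.

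Of 39 genes of glutathione synthesis and use, 2 rose and 5 fell in knockout spleen, 3 rose and 2 fell in wild-type spleen, and the median responses were -0.22 and -0.17. Abcc1, an exporter of glutathione conjugates, rose in both, by 1.16 ± 0.26 in knockout (adjusted p = 0.016 in limma) and 1.10 ± 0.26 in wild-type spleen (adjusted p = 0.0325 in limma). Glutathione transferases Gstp1 and Gstk1 fell in both genotypes. The responses in knockout and wild-type spleen were -1.02 ± 0.22 and -0.88 ± 0.22 for Gstp1 and -1.39 ± 0.33 and -1.44 ± 0.33 for Gstk1. Gsta4, which detoxifies lipid aldehydes, fell in knockout spleen (-0.82 ± 0.24) and gave -0.87 ± 0.24 in wild-type spleen, which was not called.

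Chac1, a glutathione-degrading enzyme induced by amino acid shortage, and Slc1a4, a neutral amino acid transporter, were called in wild-type and not in knockout spleen. Slc7a11 was called in knockout and not in wild-type spleen. For none of these genes did the difference of responses pass. Chac1 had 260, 94 and 49 in knockout LPS and 127, 647 and 494 in wild-type LPS spleens, against 26, 38 and 30 in knockout control and 32, 23 and 18 in wild-type control spleens. Both treated groups lay above their controls, with wide spreads that overlapped between genotypes. It rose in wild-type spleen by 3.86 ± 0.65 (adjusted p = 0.00639 in limma) and gave 1.78 ± 0.65 in knockout spleen, and the difference of responses, -2.08 ± 0.92, was not called (adjusted p = 0.915 in limma). Slc1a4 had 87, 31 and 40 in knockout LPS and 68, 277 and 220 in wild-type LPS spleens, with controls between 17 and 30. It rose by 2.91 ± 0.52 in wild-type spleen (adjusted p = 0.00817 in limma) and gave 1.05 ± 0.52 in knockout spleen, also without overlap with the controls. The difference of its responses, -1.86 ± 0.74, was not called (adjusted p = 0.869 in limma). The arrays highest in Chac1 were highest in Slc1a4 too, namely knockout LPS 1 among the knockouts and wild-type LPS 2 among the wild-types.

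Of 18 thioredoxin and peroxiredoxin genes, 2 rose and 2 fell in each genotype, with median responses of -0.17 in knockout and 0.01 in wild-type spleen. The second riser beside Txnrd1 was Txnrd3, a further thioredoxin reductase, by 2.20 ± 0.41 in knockout (adjusted p = 0.00625 in limma) and 1.91 ± 0.41 in wild-type spleen (adjusted p = 0.0203 in limma). Msrb2, a mitochondrial methionine sulfoxide reductase, fell in both, with 15, 17 and 16 in knockout LPS and 20, 16 and 19 in wild-type LPS spleens, against 45, 96 and 56 in knockout control and 38, 38 and 48 in wild-type control spleens. The responses were -1.96 ± 0.25 in knockout and -1.17 ± 0.25 in wild-type spleen, with LPS values near the bottom of the scale. Prdx4, a peroxiredoxin of the endoplasmic reticulum, fell in knockout spleen (-0.71 ± 0.18) and gave -0.59 ± 0.18 in wild-type spleen, which was not called. Sesn3, a stress-induced sestrin, fell in wild-type spleen (-1.67 ± 0.43) and gave -0.69 ± 0.43 in knockout spleen, which was not called.

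Of 35 NRF2 regulators and targets, 6 rose and 4 fell in knockout spleen and 5 rose and 5 fell in wild-type spleen, with median responses of 0.24 and 0.05. Of the small Maf partners of NRF2, Maff and Mafk rose in both genotypes and Mafg was called in neither. Maff rose by 3.01 ± 0.35 in knockout and 2.60 ± 0.35 in wild-type spleen, and Mafk by 1.20 ± 0.24 and 0.99 ± 0.24. Carbonyl reductases Cbr1 and Cbr3 and the NADPH-producing Idh1 fell in both. The responses in knockout and wild-type spleen were -2.50 ± 0.30 and -2.34 ± 0.30 for Idh1 and -1.62 ± 0.19 and -1.48 ± 0.19 for Cbr1. Osgin1, an oxidative stress-induced growth inhibitor, rose in wild-type spleen (1.63 ± 0.38) and gave 0.90 ± 0.38 in knockout spleen, which was not called. Nfe2l2, the gene of NRF2, and Keap1, both named after their values were seen, were not called in either genotype: their responses were 0.46 and 0.28 in knockout spleen and 0.25 and 0.59 in wild-type spleen.

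Hmox1, the haem-degrading NRF2 target, was also named after its values were seen. It had 902, 1575 and 1515 in knockout LPS and 577, 429 and 866 in wild-type LPS spleens, against 1721, 1144 and 1460 in knockout control and 1721, 1372 and 1319 in wild-type control spleens. The wild-type LPS values lay below all others. The response was -0.14 ± 0.30 in knockout (adjusted p = 0.843 in limma) and -1.29 ± 0.30 in wild-type spleen (adjusted p = 0.0274 in limma), and their difference, 1.15 ± 0.42, did not pass (adjusted p = 0.797 in limma). Among the 4 superoxide dismutase and catalase genes, mitochondrial Sod2 rose by 2.03 ± 0.13 in knockout (4.09-fold, adjusted p = 1.59e-05 in limma) and by 2.48 ± 0.13 in wild-type spleen (5.58-fold, adjusted p = 6.52e-06 in limma). Its arrays were among the most even of the genes named, at 2622, 2583 and 2621 in knockout LPS and 3126, 2915 and 3117 in wild-type LPS spleens, against 616, 722 and 585 in knockout control and 543, 543 and 555 in wild-type control spleens. None of the 5 lists had a gene called between genotypes, after LPS or in controls.

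**Figure D5:**
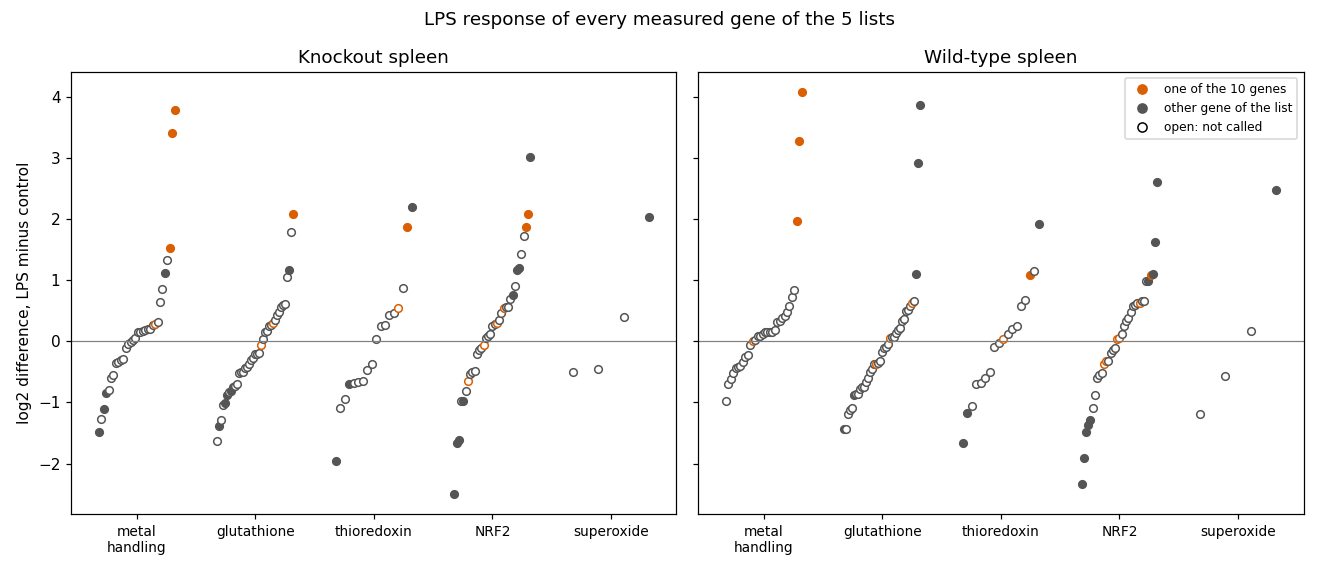
LPS response (log2 of LPS over control) of the measured genes of the 5 pathway lists, 1 point per gene ordered by size within its list, with knockout spleen on the left, wild-type spleen on the right, called genes filled and the 10 genes in orange. Each of the first 4 lists has called genes on both sides of 0 in knockout spleen, and the metal handling list has called genes only above 0 in wild-type spleen.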

How the data were processed

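Spleen RNA of 12 mice in 4 groups of 3 was measured on 1 array each, from 5 µg of RNA. Per the series' design text, the authors ran RMA (R affy package) on the scans. What they deposited is 1 intensity for each probe set, linear and in whole numbers from 6 to 15228. Array medians differed, so the arrays do not share 1 distribution, and whether the deposited values are that RMA output could not be checked. No detection calls were used, and the dimness of a probe set and the number of arrays limit the precision. Groups and replicate numbers came from the sample titles.

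Intensities were log2-transformed, and 64 control probe sets were left out. Of the 22626 others the platform's table gave 1 gene for 20380, several for 691 and none for 1555. None of the 18 probe sets of the 10 genes names a second gene. The brightest probe set stood for a gene, sets ending in _x_at aside where there was another. A model of 4 group means was fitted with lmFit and eBayes of limma 3.58.1 (R 4.3.3), on 8 residual degrees of freedom and a prior of 2.722. For each of 6 comparisons the p-values of all 22626 probe sets were adjusted together by the Benjamini-Hochberg method. The tests are two-sided with a threshold of 0.05. The fit was tested on simulated data.

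Beside the 10 genes, up to 4 genes per direction and comparison of 5 pathway lists were named by size of change among those called, some of them given as examples here, together with Dusp1 and the 5 genes most like Mt1 and Mt2. The 10 genes, the lists and the markers were chosen with earlier results of these data known. Alternatives covered normalization, a floor of 32, a filter on dim probe sets, probe set choice, array weights, a trended robust prior, a replicate block, marker means as covariates and arrays left out. The lung covariate and the fits without the arrays highest in red cell or liver markers were not planned. Same-numbered arrays were not treated as pairs, because 6 of 18 such pairs correlated above 0.1. RefSeq tables on GRCm38.p6 gave positions and promoter sequence.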

Additional observations from a re-analysis of the deposited data

How the results depend on the processing

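The 60 log2 differences of the 10 genes were recomputed under 29 alternatives, giving 1702 values. None that was called changed direction, 3 calls were lost and 7 gained, and 84 values called in neither setting changed sign. The losses were Slc39a14 in knockout spleen, without knockout LPS replicate 1 and with only the arrays compared (adjusted p = 0.0627 in limma), and Txnrd1 in wild-type spleen without wild-type LPS replicate 3. The gains were Srxn1 in knockout spleen without knockout control replicate 1 or without the control arrays highest in red cell markers, Slc7a11 between genotypes after LPS in 3 settings, and Txnrd1 and Srxn1 there with array weights (adjusted p = 0.0245 and 0.0321 in limma). Where the cause of such a change is not given by fewer arrays, it was not tested.

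Of all probe sets, 2869 were called for LPS in knockout spleen, but 1880 with a floor of 32 and 1558 with only the arrays compared. In wild-type spleen 1491 were called, but 899 with the floor, 2912 with array weights, 740 without the wild-type controls with low Xist and 807 without the 3 arrays highest in liver markers. Between genotypes after LPS 72 were called, but 43 above the 40th percentile, 2063 with array weights, 46 with a trended robust prior, 37 without the low-Xist controls, 3 without the liver-high arrays and 0 with only the arrays compared. With the replicate block, 19 were called there. In 4 of 12 arrays the array of another group that correlated best had the same number, and the replicate block changed no call of the 10 genes. Of the 10 genes, 0 were called between genotypes after LPS, but 1 with quantile normalization, 1 with the floor and 3 with array weights. In controls 0 probe sets were called, but 12 without the low-Xist controls, and for the difference of responses 0, but 8 with the floor, 1 with the trended prior and 11 without the low-Xist controls.

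Leaving out each array in turn gave 1485 to 3073 calls for LPS in knockout, 565 to 1906 in wild-type, 3214 to 4783 averaged, 4 to 108 between genotypes after LPS, and 0 to 1 in controls and for the difference of responses. The lowest counts came without knockout LPS replicate 1 for knockout and wild-type LPS replicate 3 for wild-type spleen, and the counts without knockout LPS 3 (1713), wild-type LPS 2 (737), and wild-type control 1 (937) and 2 (818) also moved by over 1.5 times. Between genotypes after LPS the count was 4 to 22 without wild-type LPS 2 or 3 or any knockout LPS array, 43 to 45 without wild-type LPS 1 or knockout control 3, 30 without wild-type control 2 and 108 without knockout control 1 or 2. Of the 10 genes 4 to 6 were then called in knockout, 3 to 4 in wild-type and 5 to 5 averaged, and 0 in the other comparisons. Among the named list genes, 368 of 1823 values lost their call and 1 reversed: Sod1 averaged over genotypes was 0.18 with the mean of all its probe sets, against -0.54. Slc30a1, Slc7a11 and Nqo1 lie below the 40th percentile and drop out of that setting. The mean of all probe sets of a gene gives no count of probe sets.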
